A study of Mus musculus with 6 samples.

Results

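The genes C1qa, C1qb, C1qc, Aif1, Axl, Vcam1, Cd68 and Mertk, which are active in macrophages and other phagocytes, were examined in bone marrow stem and progenitor cells. They were chosen by symbol, and every probe set that the array annotation gives to one of these symbols alone was taken, whatever its brightness. This gave 13 probe sets for 8 of the 18193 genes that the annotation names by a single symbol. The choice was made with the difference between the sorted populations in view, since C1qb and Aif1 were picked for being lower in one of them. Their levels and differences are therefore given as a description, with no test.

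C1qa, C1qb and C1qc encode the chains of C1q, the recognition molecule that starts the classical complement pathway and tags dying cells for uptake. Unlike most complement proteins, which come from the liver, C1q is made mainly by macrophages and dendritic cells. AIF1, also called IBA1, is an actin-binding protein of macrophages and microglia, and CD68 is a lysosomal glycoprotein of phagocytes. AXL and MERTK are receptor tyrosine kinases that bind dying cells through bridging proteins such as GAS6. VCAM1 is an adhesion molecule of stromal cells, endothelium and marrow macrophages that holds cells bearing the integrin α4β1.

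The cells came from 3 adult mice (278, 279 and 281) on a mixed 129-B6 background, all of genotype Mx1Cre;Ergkd/+;R26Y. Each mouse thus carried 1 Erg knockdown allele, a Cre recombinase under the interferon-inducible Mx1 promoter and a Rosa26 reporter that makes yellow fluorescent protein (YFP) once Cre has acted, and these alleles are shared by both populations compared. LSK cells, the lineage-negative, Sca-1-positive, c-Kit-positive fraction that holds the stem cells, were sorted from each mouse into YFP+ cells, labelled as restored to the wild-type level of Erg, and YFP- cells, labelled as Erg knockdown with about 40% less. One Affymetrix array was run for each population of each mouse, 6 in all. Because the sort was made on YFP, the labelled Erg level cannot be told apart from Cre action or from which cells Cre spared.

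The targeted gene did not show the labelled reduction. The brighter Erg probe set read 2764 ± 124 in the restored-labelled and 2810 ± 140 in the knockdown-labelled arrays, and the dimmer one 1696 ± 159 and 1573 ± 245 (SD, n = 3 each). The position of these probe sets in the Erg allele was not examined, and the groups are named by their labels throughout. Genes of the LSK gate were bright on all arrays, with the c-Kit gene Kit at 3972 to 5206 and the stem cell surface gene Cd34 at 8800 to 9512. The mean intensity of an array lay between 1031 and 1071 and its median probe set between 135 and 157. The restored-labelled array of mouse 279 stood apart in RNA quality, with log2 ratios of 3' over 5' signal of 0.68 for Gapdh and 0.74 for Actb, against 0.43 to 0.51 and 0.49 to 0.59 on the other 5 arrays. The labels pair the arrays by mouse, and in mice 279 and 281 the paired arrays did not deviate together. Deviations from the group means correlated at -0.08 and -0.21 within these mice, and at 0.31 and 0.14 across them with the knockdown-labelled arrays exchanged. Mean differences are the same under either pairing, while statements on single mice follow the labels. Arrays give no counts, so precision is limited by how many there are.

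The C1q genes lie side by side on chromosome 4 in the order C1qb, C1qc and C1qa, with no other gene of the annotation between them, and Aif1 lies on chromosome 17. The promoters of the C1q genes and Aif1, which the results turn on, are given as far as the RefSeq promoter table (GRCm38.p6) holds them, from 250 bases before to 50 bases after the transcription start. These are on the minus strand, at chr4:136886151-136886450 for C1qb, chr4:136892865-136893164 for C1qc and chr17:35176003-35176302 for Aif1. Capitals mark matches on either strand to GGAAGT, a core of the sites bound by ETS factors such as ERG and PU.1, and to TGCTGA, found in sites bound by MAF factors. The motifs do not overlap each other in these windows.
C1qb: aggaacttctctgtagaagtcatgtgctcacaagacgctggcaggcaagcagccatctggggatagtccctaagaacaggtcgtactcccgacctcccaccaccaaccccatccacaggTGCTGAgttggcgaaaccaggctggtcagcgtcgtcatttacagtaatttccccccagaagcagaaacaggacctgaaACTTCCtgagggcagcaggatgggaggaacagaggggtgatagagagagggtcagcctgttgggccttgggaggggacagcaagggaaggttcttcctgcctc
C1qc: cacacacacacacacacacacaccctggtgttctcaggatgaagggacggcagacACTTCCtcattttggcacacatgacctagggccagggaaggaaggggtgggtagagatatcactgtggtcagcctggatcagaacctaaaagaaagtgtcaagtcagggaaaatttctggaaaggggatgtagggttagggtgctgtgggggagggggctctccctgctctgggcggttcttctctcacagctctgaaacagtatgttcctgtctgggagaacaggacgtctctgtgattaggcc
Aif1: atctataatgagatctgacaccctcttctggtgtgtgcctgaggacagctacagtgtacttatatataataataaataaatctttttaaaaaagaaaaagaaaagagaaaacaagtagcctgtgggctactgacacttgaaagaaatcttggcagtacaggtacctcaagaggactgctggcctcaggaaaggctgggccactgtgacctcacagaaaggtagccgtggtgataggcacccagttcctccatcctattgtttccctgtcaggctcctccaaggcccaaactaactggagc
The C1qb window held 1 match to GGAAGT, read on the opposite strand and beginning 53 bases before the start, and 1 match to TGCTGA that begins 131 bases before it. The C1qc window held 1 match to GGAAGT, also on the opposite strand, 195 bases before the start. The Aif1 window held neither string of letters. Of all 32851 promoter windows of 300 bases, 23.8% held GGAAGT and 19.5% held TGCTGA, so these matches describe the windows and mark no binding site.

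C1qb, which encodes the B chain, was lower in the knockdown-labelled than in the restored-labelled array of each mouse at its brightest probe set. The restored-labelled arrays of mice 278, 279 and 281 read 398, 908 and 169.9, and the knockdown-labelled arrays read 115, 214 and 116. The groups overlapped, because the YFP- reading of mouse 279 lay above the YFP+ reading of mouse 281. Differences are knockdown-labelled minus restored-labelled in log2(intensity + 16), and each error is the standard error from limma with the mouse as a block. C1qb differed by -1.39 ± 0.33, and the single mice gave -1.66, -2.01 and -0.50. The restored-labelled array of mouse 279 carried much of this size. In a fit of the other 5 arrays, which has no term for the mouse, the difference was -0.81. The linear change in mean intensity was -47.8% there, in place of -69.9% over all 6 arrays. With the knockdown-labelled arrays of mice 279 and 281 exchanged, C1qb was 169.9 and 214 in one pair, a difference of 0.31, and the error of its mean difference was 0.64.

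The other C1qb probe sets did not all run alike. A second one, whose suffix _x_at likewise marks probes that may also match other sequences, read 368, 786 and 142 in the restored-labelled arrays and 97.6, 181 and 105.1 in the knockdown-labelled ones. It differed by -1.39 ± 0.36, with the arrays in nearly the same proportions as at the brightest probe set. The third, without that suffix, was dimmer, at 108, 213 and 37.5 against 40.8, 19.6 and 51.1. It differed by -1.16 ± 0.60 and went the other way in mouse 281, by 0.33, where both of its readings lay below the median probe set of their arrays.

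C1qa, for the A chain, was dim on every array. It read 64.05, 110.7 and 55.5 in the restored-labelled arrays of mice 278, 279 and 281 and 36.0, 44.0 and 17.0 in the knockdown-labelled arrays. The groups did not overlap, and all 6 values lay below the median probe set of their arrays. Its difference was -0.94 ± 0.16, with -0.62, -1.08 and -1.12 in the single mice. With the knockdown-labelled arrays of mice 279 and 281 exchanged, the error was 0.37. In the fit of 5 arrays the difference was -0.69. At such levels the size depends on the 16 added before the logarithm: it was -1.26 with 1 added and -0.54 with 64 added.

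C1qc, for the C chain, read 119.9, 233 and 87.3 in the restored-labelled arrays. The knockdown-labelled arrays were close together at 77.8, 79.6 and 72.4, all below the lowest restored-labelled value. The difference was -0.71 ± 0.26, and the single mice gave -0.53, -1.38 and -0.22. In the fit of 5 arrays it was -0.36. The array left out there was the highest of the 6 at all 5 probe sets of the C1q genes. Over the 6 arrays, which share mice in pairs, the Pearson correlations among these 5 probe sets lay between 0.67 and 0.999, and over the 5 arrays without it between 0.22 and 0.997.

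The summed intensity of the 3 C1q genes, each by its brightest probe set, was 582, 1252 and 313 in the restored-labelled arrays of mice 278, 279 and 281. In the knockdown-labelled arrays it was 229, 338 and 205. C1qb was its largest part on every array, such as 908 of 1252 on the restored-labelled array of mouse 279. The sum had the same 4 highest arrays as C1qb in the same order, which C1qb itself largely sets. The knockdown-labelled sum was 0.39, 0.27 and 0.66 of the restored-labelled sum in these mice. In sorted populations fewer cells of a type and less RNA per cell cannot be told apart.

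Aif1 was lower in the knockdown-labelled array of each mouse, and its groups were apart. Its single probe set read 292, 209.7 and 252 in the restored-labelled arrays and 117, 136 and 105 in the knockdown-labelled arrays. Every restored-labelled value lay above every knockdown-labelled one, and above the median probe set of its array, while no knockdown-labelled value did the latter. The array of mouse 279 that was highest for C1q was the lowest of its group for Aif1. The difference was -0.97 ± 0.18, with -1.22, -0.57 and -1.14 in the single mice. In the fit of 5 arrays it was -1.09.

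**Figure D1:**
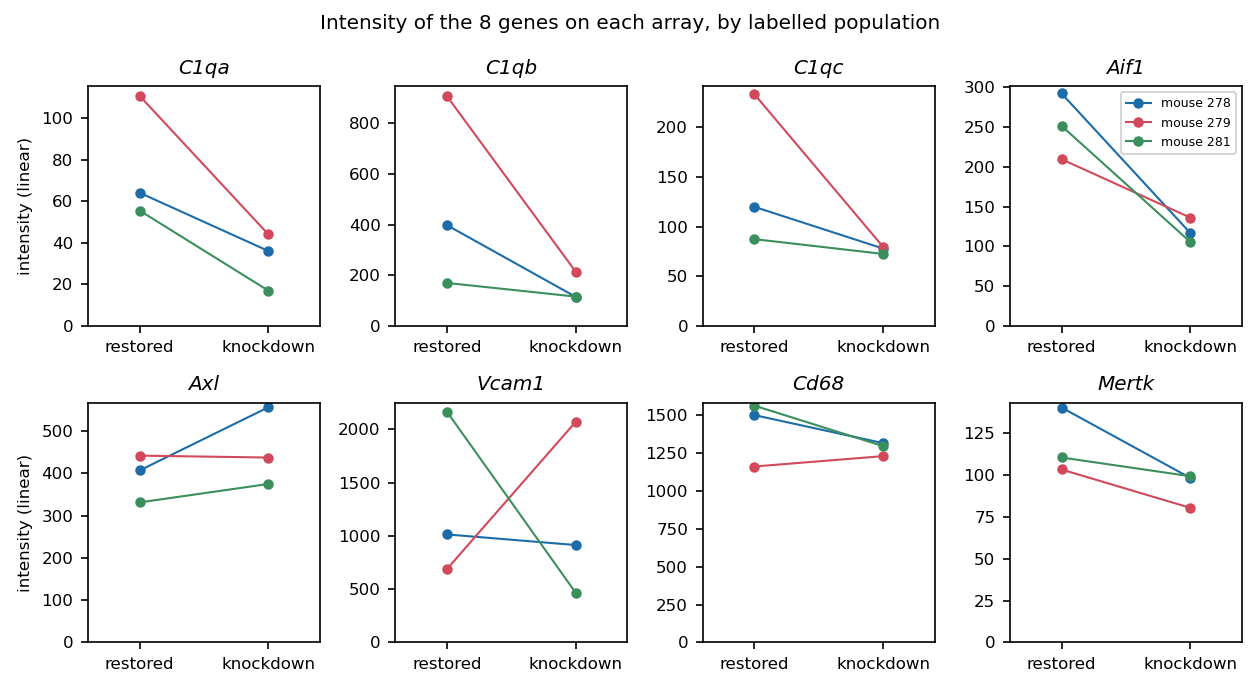
Linear probe set intensity of the 8 genes (brightest probe set of each) in the restored-labelled and knockdown-labelled arrays, with a line joining the 2 arrays of each mouse. C1qa, C1qb, C1qc, Aif1 and Mertk are lower in the knockdown-labelled array of all 3 mice, while Vcam1 runs from 2166 down to 466 in mouse 281 and from 687 up to 2070 in mouse 279.

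The receptors for dying cells differed by less than C1qb and Aif1. Mertk read 140.3, 103 and 110.45 in the restored-labelled arrays and 98.2, 80.4 and 99.3 in the knockdown-labelled arrays. The groups did not overlap, by a margin of a few units of intensity, and the gene lay below the median probe set on 5 of the 6 arrays. Its difference was -0.30 ± 0.13, with -0.45, -0.31 and -0.13 in the single mice. Axl was the only one of the 8 genes with a higher mean difference in the knockdown-labelled arrays under each scaling tried. Its brighter probe set read 407, 442 and 331 against 556, 437 and 375, with overlapping groups and a difference of 0.20 ± 0.14. The dimmer Axl probe set lay between 9.35 and 24.2 on all arrays and differed by 0.27 ± 0.13. The dimmer set was higher in all 3 mice, the brighter one in 2 of 3.

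Vcam1 and Cd68 were well above the array median on every array at their brightest probe sets, and their groups overlapped. Vcam1 read 1013, 687 and 2166 in the restored-labelled arrays and 914, 2070 and 466 in the knockdown-labelled arrays of mice 278, 279 and 281. Mice 279 and 281 ran in opposite directions, by 1.57 and -2.18, and mouse 278 differed by -0.15. With the knockdown-labelled arrays of these mice exchanged, the differences were -0.54 and -0.065, with no opposition, and the error of the mean was 0.14. Under the labelled pairing the mean of -0.25 ± 0.74 has no settled direction, since it was 0.71 without mouse 281 and -1.16 without mouse 279. The other Vcam1 probe sets showed the same opposition by the labelled mouse, with 2.26 and -3.17 at one and 0.68 and -1.55 at the other. Cd68 read 1503, 1162 and 1565 against 1317, 1231 and 1297, with overlapping groups and a difference of -0.12 ± 0.13. In the fit of 5 arrays Cd68 differed by -0.26 ± 0.097.

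**Figure D2:**
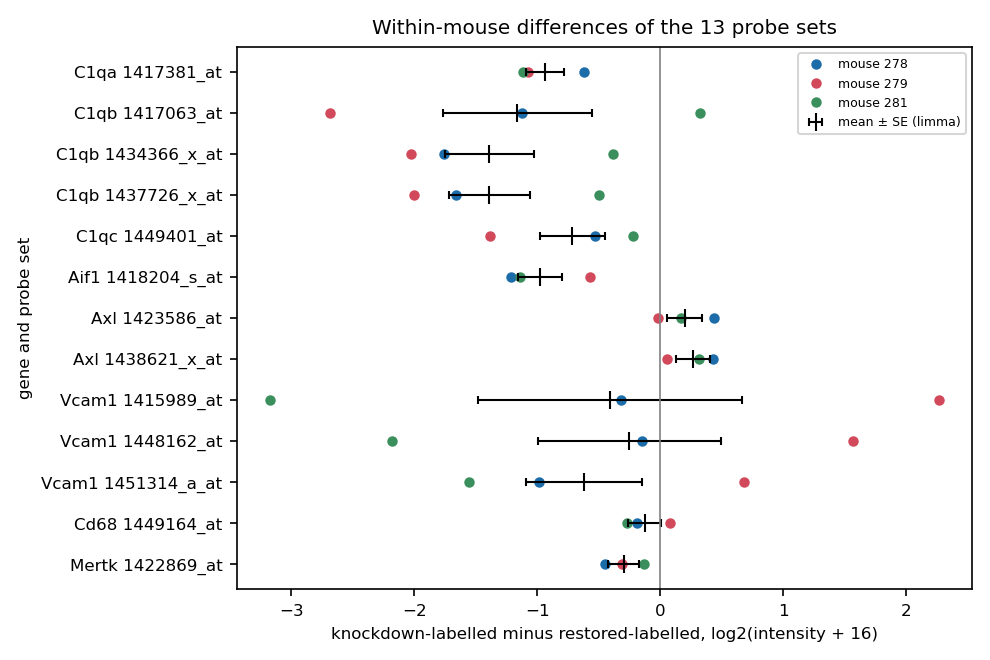
Knockdown-labelled minus restored-labelled difference in log2(intensity + 16) for each of the 13 probe sets. Coloured points are single mice, and black ticks with bars are the mean and standard error of the limma fit. All points of C1qa, C1qc, Aif1, Mertk and of 2 C1qb probe sets lie below 0, and the points of Vcam1 spread to both sides.

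Of the 8 genes, 7 had a lower and 1 a higher mean difference, with a median of -0.51, and 5 were lower in all 3 mice. Over all 18193 genes, the median was 0.0099, 47.9% had a lower mean difference and 11.9% were lower in all 3 mice. Groups without overlap in the lower direction were found for 4 of the 8 genes, namely C1qa, C1qc, Aif1 and Mertk, and for 4.85% of all genes. These counts restate the choice of the genes and nothing is read from them. Without mouse 279, 7 of 8 were lower in both remaining mice. With the crossed pairing 5 of 8 were lower in every pair, with Vcam1 in the place of C1qb. No probe set of the array passed an adjusted p of 0.05 in limma with Benjamini-Hochberg adjustment (0 of 45037, 0.0%), and 2705 (6.01%) had an unadjusted p below 0.05, of which 25.8% were lower. That share was 47.2% after quantile normalization and 63.2% when arrays were centred on their medians, which moved the median of all probe sets from 0.029 to -0.078. None of the 8 genes changed direction under these 2 scalings.

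Macrophage markers outside the 8 genes bear on whether RNA of macrophages differed between the sorted populations. Of 22 listed markers 21 were measured, and 14 had a lower and 7 a higher mean difference, with a median of -0.060. None passed an adjusted p of 0.05 in limma, and 2 had an unadjusted p below 0.05, both lower, as did 4.71% of all genes in either direction. These were Cd5l, a secreted protein of tissue macrophages, and the mannose receptor gene Mrc1. Cd5l read 146, 311 and 46.9 in the restored-labelled arrays and 48.5, 56.2 and 41.7 in the knockdown-labelled ones, a difference of -1.21 ± 0.42 (adjusted p = 0.817, limma). In the fit of 5 arrays it was -0.65. Its 3 highest arrays were those of C1qb in the same order, with the restored-labelled array of mouse 279 first and that of mouse 278 next. The remaining arrays ran in another order than for C1qb. Mrc1 read 169, 189.7 and 123 against 127.9, 60.4 and 70.1, a difference of -0.83 ± 0.24 (adjusted p = 0.817, limma), and its groups overlapped.

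The 6 defining macrophage genes fixed for naming, Mrc1 among them, had lower mean differences, none past the adjusted threshold. The full orders of arrays of these 6 genes were other than that of C1qb, though Mrc1 had the same 2 highest arrays in the same order. Over the 6 arrays their Pearson correlations with C1qb ran from 0.03 for Csf1r to 0.66 for Mrc1. With Aif1 they ran from 0.30 for Cd163 to 0.77 for Csf1r, and over all 21 markers from -0.54 for Siglec1 to 0.77. Csf1r, the receptor for the macrophage growth factor, read 1827, 1088 and 1653 against 1235, 1049 and 1105, a difference of -0.40 ± 0.16 (adjusted p = 0.818, limma). Adgre1, which encodes F4/80, read 318, 222 and 289.8 against 263, 382 and 82.7, a difference of -0.38 ± 0.48 (adjusted p = 0.905, limma), and mouse 279 ran the other way. The scavenger receptor gene Cd163 read 660, 458 and 286 against 521, 245 and 358, a difference of -0.30 ± 0.26 (adjusted p = 0.873, limma), and mouse 281 ran the other way. The high-affinity Fc receptor gene Fcgr1 lay between 35.7 and 89.0 and differed by -0.43 ± 0.20 (adjusted p = 0.828, limma). Vsig4, a complement receptor gene of tissue macrophages, lay between 7.17 and 36.2 and differed by -0.26 ± 0.33 (adjusted p = 0.907, limma). Timd4, a receptor gene for dying cells, lay between 0.28 and 10.3. No marker was listed at exactly 0, but 8 of the 21 lay below the array median on all 6 arrays and another 8 above it on all 6. Among the latter were Lyz2 at 5806 to 6539 and Ctss at 3199 to 4961, a lysozyme and a protease gene.

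The summed intensity of the 21 markers lay between 16193 and 20943 in the restored-labelled and between 16532 and 19748 in the knockdown-labelled arrays. The array with the highest C1q sum, the restored-labelled one of mouse 279, had the lowest sum of macrophage markers, and it is the array that stood apart in RNA quality. Without it the restored-labelled sums were 20943 and 20032, both above the knockdown-labelled ones. In mice 278, 279 and 281 the knockdown-labelled sum was 0.94, 1.22 and 0.83 of the restored-labelled one, beside 0.39, 0.27 and 0.66 for C1q. Lyz2, Ctss and Mpeg1, which these progenitor arrays all hold at high levels, made up 68.6% to 74.3% of the sum. The 13 markers that did not lie above the array median on all 6 arrays, a subset set apart after the values were seen, summed to 1877, 1375 and 1278 in the restored-labelled and 1546, 1352 and 736 in the knockdown-labelled arrays. That sum was lower in the knockdown-labelled array of each mouse, at 0.82, 0.98 and 0.58 of the restored-labelled one. The groups overlapped, and mouse 279, with the largest C1q difference, had the smallest difference in this sum. In that mouse its brightest members by mean, Adgre1, Cd14 and Spic, rose from 222, 113 and 146 to 382, 226 and 256. Other members went both ways there, with Cd5l from 311 to 56.2, Mrc1 from 189.7 to 60.4 and Siglec1 from 59.5 to 83.1. Whether carried macrophage RNA accounts for the lower C1qb and Aif1 was not tested beyond these values, since no array here measured macrophages of these mice.

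**Figure D3:**
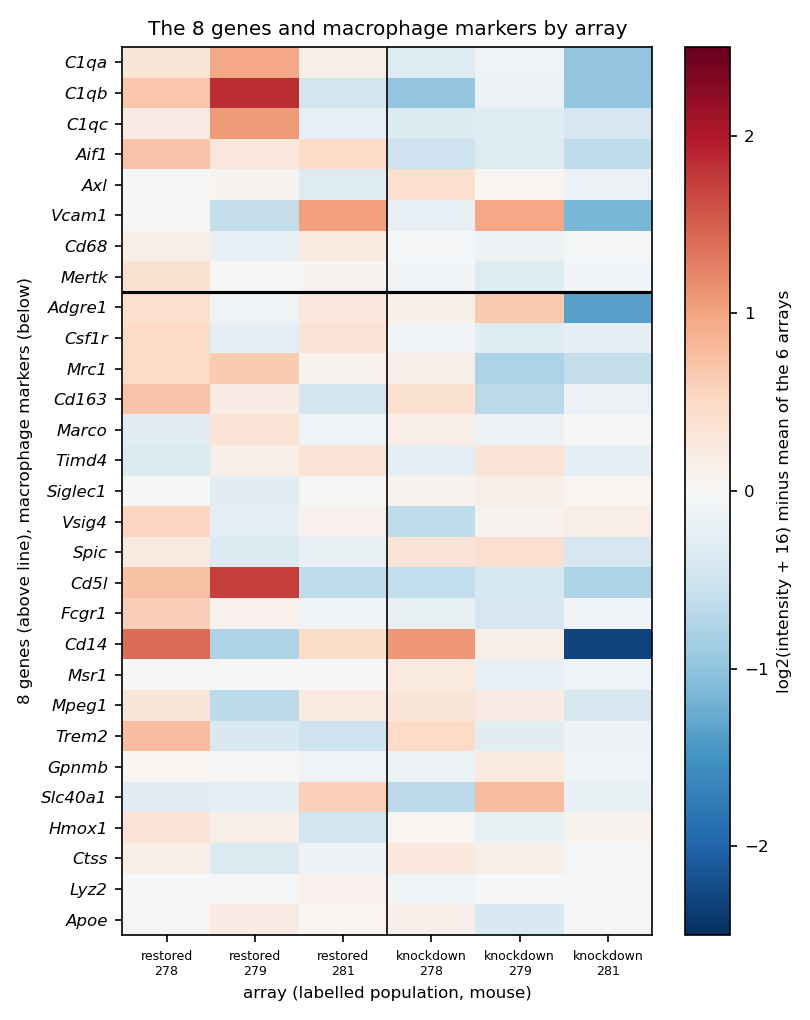
Deviation of each array from the mean of the 6 arrays, in log2(intensity + 16), for the 8 genes (above the line) and 21 macrophage markers (below it), with restored-labelled arrays on the left. The colour scale holds all values, of which the largest is 2.31 in size. C1qa, C1qb, C1qc, Cd5l, Mrc1, Marco and Apoe are highest on the restored-labelled array of mouse 279. Vcam1 and Slc40a1 are highest on the knockdown-labelled array of mouse 279 and the YFP+ array of mouse 281.

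Vcam1 ordered the arrays differently from C1q. Slc40a1, the iron exporter gene that marrow macrophages use to recycle red cell iron, read 1004, 1043 and 1848 in the restored-labelled and 771, 2095 and 1079 in the knockdown-labelled arrays. Its 2 highest arrays were those of Vcam1. The summed intensity of 11 monocyte and neutrophil markers was 70007, 54386 and 92119 in the restored-labelled and 68943, 94654 and 61595 in the knockdown-labelled arrays. Its 4 highest arrays were the 4 highest of Vcam1. The part of these cells in the spread of Vcam1 was not tested.

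Genes of the same pathways were set beside the 8 from fixed lists, and none of their measured members passed an adjusted p of 0.05 in limma. Of 19 measured complement genes 11 were higher and 8 lower, with a median of 0.033, and 0 had an unadjusted p below 0.05. The smallest was that of Cd46, a complement regulator gene with a mean intensity of 85.2, at 0.65 ± 0.26 (adjusted p = 0.817, limma). The C1q receptor candidates Cd93 and Calr, both bright, differed by 0.062 ± 0.11 and 0.080 ± 0.11 (adjusted p = 0.932 and 0.914, limma). Of 25 genes of engulfment 14 were higher and 11 lower, with a median of 0.081. At unadjusted p below 0.05 there were 3, 2 higher and 1 lower, where 4.71% of all genes lay below that p. The lower one was Stab2, a scavenger receptor gene that binds dying cells, at -0.40 ± 0.14 and lower in 3 of 3 mice (adjusted p = 0.817, limma). One of the higher ones was Gas6, the ligand of AXL and MERTK, which read 230.2, 205 and 248 in the restored-labelled and 343, 496 and 390.3 in the knockdown-labelled arrays. The groups of Gas6 did not overlap, its difference was 0.79 ± 0.18 and it was higher in 3 of 3 mice (adjusted p = 0.817, limma). Itgb5, an integrin chain that takes part in the uptake of dying cells, also had groups that did not overlap, with 714, 720.2 and 597 against 927, 990.0 and 859 and a difference of 0.44 ± 0.12 (adjusted p = 0.817, limma). Of all genes, 8.45% were higher without overlap of the groups. Of 8 genes listed beside Vcam1, integrin chains and other adhesion genes, 6 were lower and 2 higher. Their median was -0.11, with 1 at unadjusted p below 0.05 in limma. This was Vwf, the von Willebrand factor gene of platelets and endothelium, which is no integrin chain. It differed by -0.68 ± 0.16 (adjusted p = 0.817, limma), was lower in 3 of 3 mice and had no overlap of the groups. Itga4, the integrin chain that binds VCAM1, read 7284 to 8061 and differed by 0.072 ± 0.12 (adjusted p = 0.926, limma). The other listed integrin chains Itgb1, Itgb7 and Itga9 differed by 0.034 ± 0.12, -0.094 ± 0.16 and -0.16 ± 0.20.

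Markers of other cell types were read on the same arrays, and none passed an adjusted p of 0.05 in limma. Of all 18193 genes, 4.71% had an unadjusted p below 0.05 in limma, in either direction. Of the 8 measured erythroid partners of marrow macrophages 7 were higher and 1 lower, with a median of 0.056. Of the 11 monocyte and neutrophil markers 5 were higher and 6 lower, with a median of -0.038, and neither list had a gene at unadjusted p below 0.05 (0 of 8 and 0 of 11). The 11 dendritic cell markers had 3 higher and 8 lower, with a median of -0.093 and 2 at unadjusted p below 0.05, both higher. Of the 12 endothelial markers 5 were higher and 7 lower, with a median of -0.085, and at unadjusted p below 0.05 there were 1 higher, the tight junction gene Cldn5 at 1.95 ± 0.42 (adjusted p = 0.817, limma), and 2 lower. The 12 stromal markers had 9 higher and 3 lower, a median of 0.30 and 4 at unadjusted p below 0.05, all higher, led by Sparc at 1.42 ± 0.26 and Cxcl12 at 1.93 ± 0.36 (adjusted p = 0.817 for both, limma). The 11 B and plasma cell markers had 8 higher and 3 lower, a median of 0.54 and 6 at unadjusted p below 0.05, all higher. Their sums were 15640 to 17209 in the restored-labelled against 20231 to 31958 in the knockdown-labelled arrays. Ighm alone had means of 1940 and 8581 in these groups, within sums that averaged 16434 and 27620. The 8 measured genes of the LSK gate had a median of 0.15 and sums of 39157 to 39353 against 40816 to 43531. These last 2 sums did not overlap between the groups, in the direction opposite to C1qb and Aif1, and their part in the difference of those genes was not tested. Of all single genes, 8.45% were higher without overlap of the groups.

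**Figure D4:**
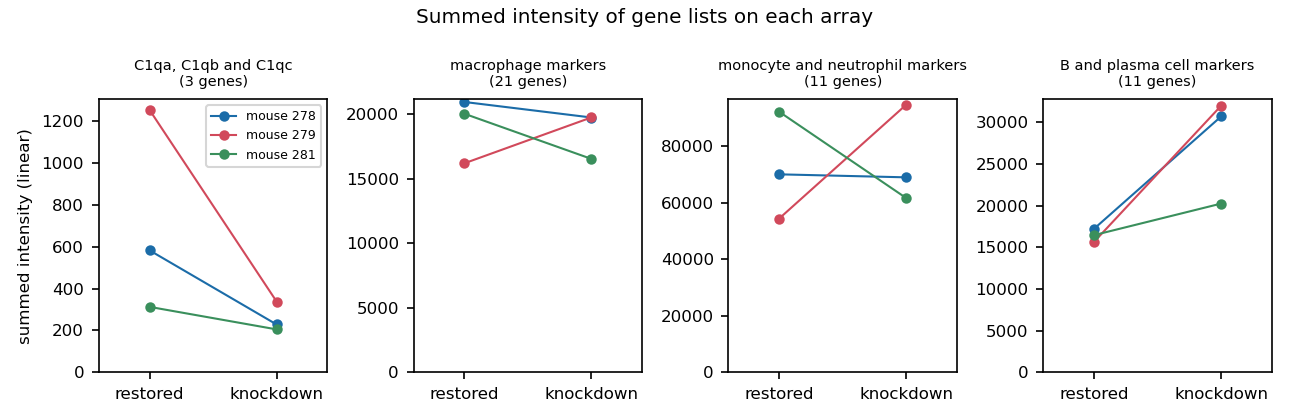
Summed linear intensity on each array of the 3 C1q genes, 21 macrophage markers, 11 monocyte and neutrophil markers and 11 B and plasma cell markers, with a line joining the arrays of each mouse. The knockdown-labelled array has the lower C1q sum and the higher B and plasma cell sum in all 3 mice. The macrophage sum is higher there in mouse 279 (19748 against 16193) and lower in the other mice.

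Genes with a pattern over the 6 arrays like that of C1qb were sought among bright probe sets only, which left out C1qa, C1qc and 10 of the 21 macrophage markers. Of those left out, C1qc correlated with C1qb at 0.96. The 10 markers left out ran from -0.82 for Siglec1 to 0.98 for Cd5l, with Mrc1 at 0.66. The bright macrophage markers ran from -0.60 for Ctss to 0.41 for Hmox1. Among 19331 named probe sets at or above the median mean intensity, the highest Pearson correlations with C1qb were those of Asf1a (0.99), Mest (0.99), Nagpa (0.99), Sigirr (0.99) and Fermt3 (0.99). They varied over a much narrower range, such as 4112 to 4867 for Asf1a. The Fermt3 correlation is that of a probe set at 2382 to 3206. The brightest Fermt3 probe set, at 6615 to 7940, ordered the arrays otherwise than C1qb. A correlation of 0.95 or more was reached by 97 of these probe sets with C1qb and by 15 with Aif1. For Aif1 the highest were Etfbkmt (0.996), Cox11 (0.99), Cmc2 (0.98), Rasgrp2 (0.98) and Nav2 (0.98).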

How the data were processed

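Per the labels' protocols, RNA of sorted LSK cells was purified with a Qiagen kit, amplified and biotin-labelled with NuGEN Ovation V2 and hybridized to Affymetrix mouse expression arrays. The authors deposited linear intensities, 1 per probe set and array; their summary, background correction and normalization are not given in the sources used here.

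From the table of 45101 probe sets, 64 controls were left out. A single gene symbol was annotated for 34945 of the rest. Values were taken to log2(intensity + 16), and the added 16 understates changes of dim genes. All 45037 probe sets were fitted with limma 3.58.1 in R 4.3.3, with the mouse as a fixed block and no filter on low values. Benjamini-Hochberg adjustment ran over all of them. A gene is represented by its probe set with the highest mean. Where a text gives a gene's limma adjusted p, it belongs to that probe set. The search for correlated genes took any bright named probe set of a gene. The fit was tested on simulated data.

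The pairing comes from the labels, which state that both populations of a pair were sorted from one animal. Correlations of deviations from the group means within mice 278, 279 and 281 were 0.27, -0.08 and -0.21; across mice, YFP+ of 279 with YFP- of 281 gave 0.31 and YFP+ of 281 with YFP- of 279 gave 0.14. The labelled pairing was kept, and whether labels were exchanged was not tested. Nothing beyond the mouse numbers describes the replicates.

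The 8 genes and the 11 lists beside them were chosen with earlier results of these data known. Of 167 list entries 13 had no named probe set. The text names all 8 genes, 6 defining macrophage markers and the 5 genes most correlated with C1qb and with Aif1. The rule also covers the 2 genes of each list with the smallest unadjusted p and the 2 with the highest mean; some of these are only counted with their lists. Slc40a1, Timd4, Mpeg1 and Kit were added after their values were seen. Promoters were matched by symbol in the RefSeq table, and 6 of the 8 genes were found. Figures were drawn with matplotlib 3.10.9.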

Additional observations from a re-analysis of the deposited data

How the results depend on the processing

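Across 14 alternatives, C1qa, C1qb, C1qc, Aif1, Cd68 and Mertk stayed lower and Axl higher wherever a value could be had, while Vcam1 changed sign without mouse 281. C1qb ran from -1.83 to -0.81 and Aif1 from -1.18 to -0.78. Chosen after seeing the data were the C1qb probe set without the _x_at suffix (-1.16), the count of genes lower in every mouse, the changes in percent and a crossed replicate block, with the knockdown-labelled arrays of mice 279 and 281 exchanged. The crossed block gave 0 adjusted calls, 2861 probe sets at unadjusted p below 0.05 and the same mean differences. The median of the 8 genes was -0.59 after quantile normalization, -0.61 with centred arrays, -0.57 with 1 added, -0.38 with 64 added and -0.57 with each gene's probe sets averaged. Leaving out 1 mouse gave -0.62 to -0.55. With a filter at the median intensity, 5 genes were left, with a median of -0.25 and 2 lower in every mouse; C1qa, C1qc and Mertk then have no value.

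The fit without the replicate block gave the same differences, 0 adjusted calls and 2571 probe sets at unadjusted p below 0.05, against 2705 with it, and changed no call. The latter count was 1366 with the filter and 1020 with probe sets averaged, where fewer features were tested, and 1613 to 3185 when 1 mouse was left out (1613 without mouse 278). With trend and robust settings 1 probe set passed, of the immunoglobulin gene Igkv9-120. It was lower in the knockdown-labelled array of each mouse, with a difference of -4.11, in the direction opposite to Ighm. The median of the macrophage markers stayed between -0.17 and -0.017. Dim levels limit C1qa most.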
